A study of Mus musculus with 8 samples.

Results

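Inhibitory receptors are cell surface proteins that damp signalling through the T cell receptor. The 7 genes described here are Pdcd1, Lag3, Havcr2, Tigit, Cd160 and Btla, which encode such receptors, and Tox, which encodes a transcription factor of T cells kept under chronic antigen stimulation. They were picked by name from a raw count table of 37411 genes, and all 7 were found in it. The data are 8 RNA-seq libraries of sorted CD4+ effector T cells, about 10000 cells each, taken 6 weeks after T cell transfer into mice without mature T and B cells, which still have innate lymphocytes and myeloid cells. The cells carried an LMPd retroviral short hairpin, either shMdr1, aimed at the multidrug transporter Mdr1 (Abcb1a), or the control shCD8, and they were recovered from small intestine or spleen. The hosts were Rag1-/- Slc10a2 -/- mice (written Asbt-/- here, lacking the bile acid transporter of the ileum) or Rag1-/- Slc10a2 +/+ mice (Asbt+/+), both on the C57BL/6 background, and the loss of Rag1 was thus common to every host. There was 1 library for each combination of tissue, hairpin and host, which leaves 4 libraries on either side of each factor. Titles gave the hairpin, since a separate label names shMdr1 in all 8 cases. Nothing in the labels says which libraries came from separate animals, so a p-value here measures library-to-library spread, part of which may be technical.

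PD-1 (Pdcd1), BTLA and TIGIT recruit phosphatases to the synapse, LAG-3 engages MHC class II and other ligands, TIM-3 (Havcr2) binds several ligands including galectin-9, and CD160 and BTLA share the ligand HVEM. T cells induce several of these receptors after activation, and cells held under persistent antigen keep them, with TOX as a driver of that state. In the gut wall, where bacterial and dietary antigens are constantly present, CD160 is well known on intraepithelial lymphocytes.

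Totals were 1685225 to 2767105 counts per library. The library labelled shCD8 small intestine Asbt+/+ stood apart: it had counts for 8456 genes, against 11345 to 13184 in the other 7. It also held the highest value of the 8 libraries for Pdcd1, Lag3, Havcr2 and Btla. The fitted tissue, hairpin and host effects of Pdcd1, Havcr2 and Btla are thus given with and without it. Ctla4, an inhibitory receptor gene outside the 7, was also highest there (1650 CPM) and is given only with that library. Lag3 falls under the filter without it, and no fit of Lag3 without it is given. Mitochondrial transcripts took 6.63 to 26.8% of the counts. The targeted gene Abcb1a was lower with shMdr1 in 3 of 4 pairs, with 102 counts (shMdr1) against 228 (shCD8) in small intestine and 36 against 62 in spleen from Asbt-/- mice, and 45 against 95 in spleen from Asbt+/+ mice. The small intestine pair from Asbt+/+ mice was not lower with shMdr1, at 23 counts (shMdr1) and 21 (shCD8), so these libraries are called by their labels throughout. Counts this few, from totals of 1685225 and 2417913, do not settle a direction. Cd8a, the target of the control hairpin, had 0 to 150 counts and Slc10a2, the gene missing from Asbt-/- hosts, 0 to 3. The summed markers of CD4 T cells were 6677 to 10570 CPM (counts scaled by TMM-adjusted library size) in small intestine and 6819 to 7781 CPM in spleen, and all 11 were detected in every library.

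The start regions of 3 of the genes are shown first, taken from RefSeq (GRCm38.p6, whereas the counts were made on mm9). Each runs from 250 bases before to 50 bases after an annotated start, 5′ to 3′ on the strand of the gene. RefSeq windows were matched for 5 of the 7 genes, and Lag3 and Tox are named only. Capitals mark matches, on either strand, to letters searched for 5 factor families of activated T cells: AP-1 (TGANTCA), NR4A (AAGGTCA), a CRE half-site (TGACG), RUNX (TGTGGT) and EGR (GTGGGCG). Cd160 is shown with both of its starts (chr3:96829302-96829601 and chr3:96814472-96814771, minus strand) as the gene that passed the test between tissues. Havcr2 (chr11:46454681-46454980, plus strand) is shown as the gene whose tissues did not overlap. Tigit (chr16:43664135-43664434, minus strand) is shown for its spleen libraries, where both hairpin ratios lay below 1 beyond counting error.
Cd160, first start: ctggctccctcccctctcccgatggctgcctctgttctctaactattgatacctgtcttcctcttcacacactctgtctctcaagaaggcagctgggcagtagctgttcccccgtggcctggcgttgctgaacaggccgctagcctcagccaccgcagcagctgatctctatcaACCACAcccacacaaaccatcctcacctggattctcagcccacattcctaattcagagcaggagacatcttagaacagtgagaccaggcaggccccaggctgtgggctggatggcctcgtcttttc
Cd160, second start: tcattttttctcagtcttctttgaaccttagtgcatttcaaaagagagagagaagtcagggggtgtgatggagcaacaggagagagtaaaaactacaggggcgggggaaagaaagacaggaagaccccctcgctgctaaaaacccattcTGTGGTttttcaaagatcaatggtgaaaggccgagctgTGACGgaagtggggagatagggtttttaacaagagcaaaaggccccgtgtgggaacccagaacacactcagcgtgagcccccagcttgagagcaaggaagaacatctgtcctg
Havcr2: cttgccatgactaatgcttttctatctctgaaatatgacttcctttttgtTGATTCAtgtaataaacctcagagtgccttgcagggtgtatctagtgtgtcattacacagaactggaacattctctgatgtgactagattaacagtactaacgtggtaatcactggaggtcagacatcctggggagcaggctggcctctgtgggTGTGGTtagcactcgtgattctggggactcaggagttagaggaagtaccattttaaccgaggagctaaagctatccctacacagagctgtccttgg
Tigit: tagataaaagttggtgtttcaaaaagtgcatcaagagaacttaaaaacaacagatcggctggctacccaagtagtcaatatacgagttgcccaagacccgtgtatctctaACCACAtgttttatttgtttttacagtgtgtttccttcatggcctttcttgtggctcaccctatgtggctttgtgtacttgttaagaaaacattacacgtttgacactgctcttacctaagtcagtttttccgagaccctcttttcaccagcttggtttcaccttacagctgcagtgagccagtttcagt
A RUNX match stood in all 4 of these windows, at -76 (opposite strand) and -101 for the first and second start of Cd160, at -46 for Havcr2 and at -140 (opposite strand) for Tigit, counted from the annotated start to the first base of the match. The second start of Cd160 also held a CRE half-site at -63, and Havcr2 held an AP-1 match at -200. Of 32851 windows of this length, 16.8% held the RUNX letters, 20.8% the CRE half-site, 7.8% AP-1, 8.0% EGR and 4.7% NR4A. Btla held 1 RUNX match at -178 (opposite strand), and the Pdcd1 window held none of the 5 letter strings. A match describes letters in these windows and not a bound site.

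The first comparison asked how T cells recovered from the small intestine differed from those in the spleen. Cd160 was higher in small intestine, 5.59-fold in the fit of all libraries, and was the 1 gene of the 7 that passed the test. Havcr2 and Lag3 had larger fold changes and did not pass. Tigit and Pdcd1 lay above 0, and Btla and Tox below 0, without passing. Among all 10000 genes tested, 0.620% passed in either direction and 0.510% passed as higher in small intestine.

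Cd160 encodes a glycolipid-anchored receptor for HVEM and for MHC class I molecules. In small intestine it stood at 121 CPM (shMdr1) and 104 CPM (shCD8) in Asbt-/- hosts, and at 415 and 64.7 CPM in the Asbt+/+ libraries labelled shMdr1 and shCD8. In spleen it stood at 19.1 CPM (shMdr1) and 16.3 CPM (shCD8) in Asbt-/- hosts, and at 79.9 CPM (shMdr1) and 14.6 CPM (shCD8) in Asbt+/+ hosts. The tissues overlapped, because the highest spleen library lay above the lowest small intestine library, yet each small intestine library exceeded the spleen library with the same hairpin and host. Those 4 ratios were 6.33 (95% interval 4.37 to 9.49) for shMdr1 and 6.37 (4.45 to 9.40) for shCD8 in Asbt-/- hosts, and 5.20 (4.42 to 6.14) and 4.42 (3.04 to 6.60) in the Asbt+/+ pairs labelled shMdr1 and shCD8. Intervals on single libraries and pairs are exact and cover counting error only. Cd160 averaged 176 ± 161 CPM in small intestine and 32.5 ± 31.7 CPM in spleen (SD over 4 libraries each, which differ in hairpin and host), a log2 fold change of 2.48 ± 0.45 (SE; edgeR adjusted p = 0.0355). Of all genes tested, 8.11% were higher in small intestine in every matched pair. Leaving out any 1 library kept the log2 fold change between 2.08 and 2.85. The call held without the library labelled shCD8 small intestine Asbt+/+ (adjusted p = 0.00258) and was lost without any of the other 7 (adjusted p = 0.064 to 0.296). It was also lost in limma-voom (adjusted p = 0.0583).

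**Figure D1:**
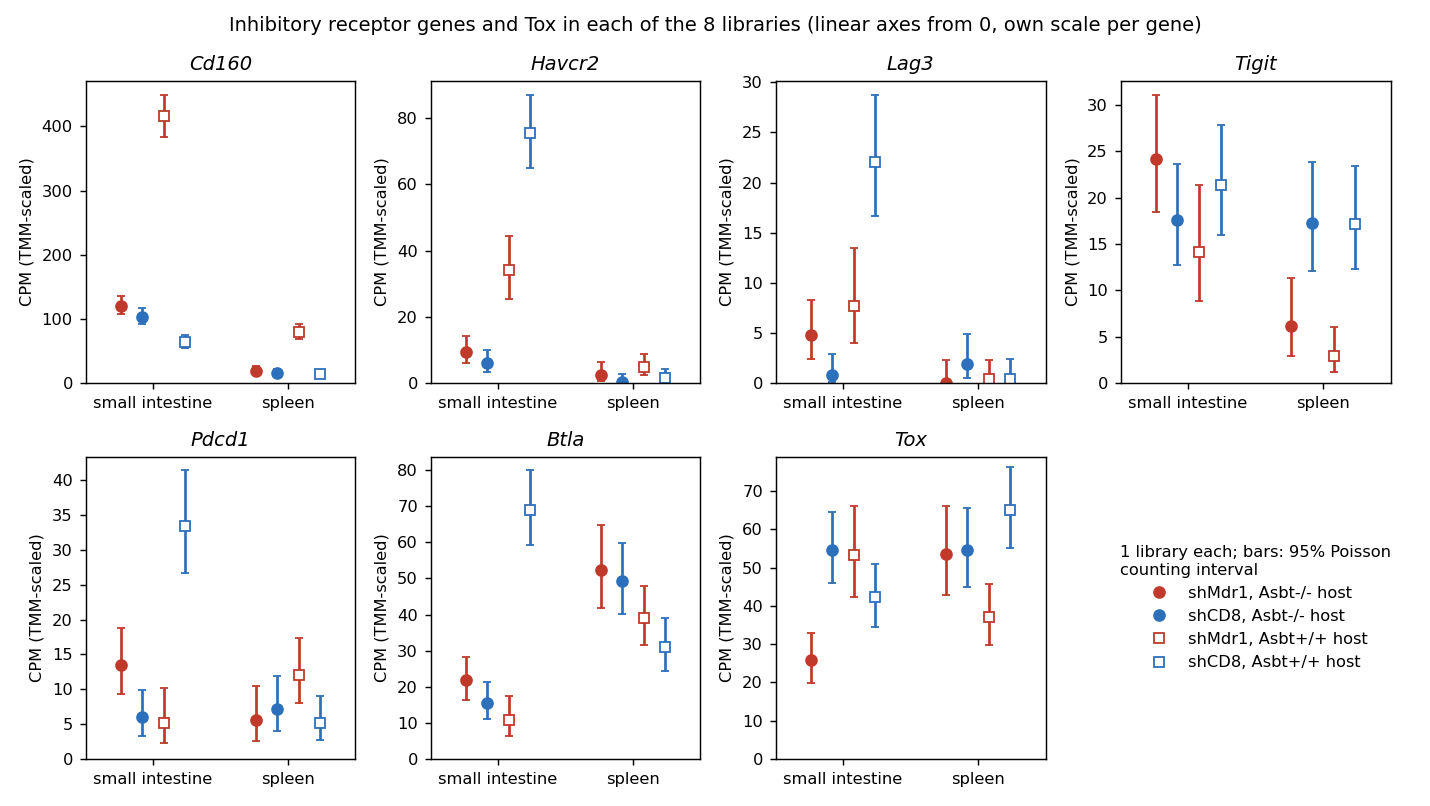
CPM of the 7 genes in each of the 8 libraries, on linear axes with a scale of their own for each gene. Points are single libraries by hairpin (colour) and host (filled Asbt-/-, open Asbt+/+), and bars are exact 95% Poisson intervals for counting error. Cd160 is highest in the small intestine library labelled shMdr1 Asbt+/+ (415 CPM), whereas Havcr2, Lag3, Pdcd1 and Btla are highest in the one labelled shCD8 Asbt+/+.

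Havcr2 encodes TIM-3, a receptor of interferon gamma-producing T cells. It stood at 9.51 CPM (shMdr1, 24 counts) and 5.99 CPM (shCD8, 15 counts) in small intestine from Asbt-/- mice, and at 34.0 and 75.3 CPM in the Asbt+/+ libraries labelled shMdr1 and shCD8 (53 and 191 counts). In spleen it had 4 counts (shMdr1, 2.46 CPM) and 1 count (shCD8, 0.479 CPM) in Asbt-/- hosts, and 12 counts (shMdr1, 5.00 CPM) and 4 counts (shCD8, 1.72 CPM) in Asbt+/+ hosts. The lowest small intestine library lay above the highest spleen library, which held for 3.39% of all genes tested. The means were 31.2 ± 31.9 CPM in small intestine and 2.41 ± 1.91 CPM in spleen (SD, n = 4 each), and the log2 fold change of 3.43 ± 0.89 did not pass (edgeR adjusted p = 0.169). It was 2.71 ± 0.82 without the library labelled shCD8 small intestine Asbt+/+ (adjusted p = 0.166). Havcr2 passed without a filter on low counts (adjusted p = 0.0455) and in DESeq2 (adjusted p = 0.0035).

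Lag3 encodes a CD4-like receptor that binds MHC class II. It had 12 counts (shMdr1, 4.76 CPM) and 2 counts (shCD8, 0.798 CPM) in small intestine from Asbt-/- mice, and 12 and 56 counts (7.70 and 22.1 CPM) in the Asbt+/+ libraries labelled shMdr1 and shCD8. In spleen it had 0 counts (shMdr1) and 4 counts (shCD8) in Asbt-/- hosts, and 1 count each with shMdr1 and shCD8 in Asbt+/+ hosts. The spleen libraries were thus at the limit of detection, 6 counts in all against 82 in small intestine. Lag3 entered the tested set through 2 small intestine libraries and no spleen library above the filter limit of 4.56 CPM. That limit is on plain library totals, on which the shMdr1 small intestine Asbt-/- library had 4.34 CPM of Lag3. The log2 fold change of Lag3, 3.49 ± 1.60 (edgeR adjusted p = 0.593), is thus a description. Havcr2 exceeded that limit in 4 small intestine libraries and 1 spleen library, Tigit in 4 and 3, and the other 4 genes in all 8 libraries. Havcr2 thus entered mainly through the tissue where it was high, so its tissue values, like those of Lag3, are a description.

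Tigit encodes a receptor that competes with the co-stimulatory receptor CD226 for the ligand CD155. It stood at 24.2 CPM (shMdr1) and 17.6 CPM (shCD8) in small intestine from Asbt-/- mice, and at 14.1 and 21.3 CPM in the Asbt+/+ libraries labelled shMdr1 and shCD8. In spleen it stood at 6.16 CPM (shMdr1) and 17.2 CPM (shCD8) in Asbt-/- hosts, and at 2.91 CPM (shMdr1) and 17.2 CPM (shCD8) in Asbt+/+ hosts. Only the shMdr1 spleen libraries stood low, and the shCD8 spleen libraries lay within the small intestine range. The tissue ratio was 3.93 (2.00 to 8.60) and 4.85 (2.00 to 13.4) for shMdr1 in Asbt-/- and Asbt+/+ hosts, but 1.02 (0.641 to 1.63) and 1.24 (0.808 to 1.91) for shCD8. The log2 fold change between tissues was 1.11 ± 0.77 (edgeR adjusted p = 0.769).

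Pdcd1, which encodes PD-1, lay between 5.14 and 13.5 CPM in all libraries but 1. It stood at 13.5 CPM (shMdr1) and 5.99 CPM (shCD8) in small intestine from Asbt-/- mice, and at 5.14 and 33.5 CPM in the Asbt+/+ libraries labelled shMdr1 and shCD8. In spleen it stood at 5.54 CPM (shMdr1) and 7.18 CPM (shCD8) in Asbt-/- hosts, and at 12.1 CPM (shMdr1) and 5.16 CPM (shCD8) in Asbt+/+ hosts. The tissues overlapped, and 1 library stood above the rest. The log2 fold change was 0.86 ± 0.91 (edgeR adjusted p = 0.861) with that library and -0.07 ± 0.90 without it (adjusted p = 0.984).

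Btla encodes the other HVEM receptor of the set. It stood at 21.8 CPM (shMdr1) and 15.6 CPM (shCD8) in small intestine from Asbt-/- mice, and at 10.9 and 69.0 CPM in the Asbt+/+ libraries labelled shMdr1 and shCD8. In spleen it stood at 52.3 CPM (shMdr1) and 49.3 CPM (shCD8) in Asbt-/- hosts, and at 39.1 CPM (shMdr1) and 31.0 CPM (shCD8) in Asbt+/+ hosts. In 3 of the 4 pairs the small intestine library was lower, at 0.417 (0.291 to 0.592), 0.316 (0.213 to 0.460) and 0.279 (0.156 to 0.471) of its spleen partner, while the pair labelled shCD8 Asbt+/+ had a ratio of 2.23 (1.69 to 2.98). The log2 fold change was -0.71 ± 0.61 over all libraries (edgeR adjusted p = 0.816) and -1.58 ± 0.39 without that small intestine library (adjusted p = 0.0705).

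Tox had the smallest spread of the 7 relative to its mean over the 8 libraries. It stood at 25.8 CPM (shMdr1) and 54.7 CPM (shCD8) in small intestine from Asbt-/- mice, and at 53.3 and 42.2 CPM in the Asbt+/+ libraries labelled shMdr1 and shCD8. In spleen it stood at 53.6 CPM (shMdr1) and 54.6 CPM (shCD8) in Asbt-/- hosts, and at 37.1 CPM (shMdr1) and 64.9 CPM (shCD8) in Asbt+/+ hosts. The means were 44.0 ± 13.4 CPM in small intestine and 52.5 ± 11.5 CPM in spleen (SD, n = 4 each), a log2 fold change of -0.26 ± 0.38 (edgeR adjusted p = 0.901). The difference was smaller than the spread between libraries of one tissue.

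Over the 7 genes, the median log2 fold change between tissues was 1.11 and 5 lay above 0, beside a median of -0.17 and 41.1% above 0 over all genes tested. The count includes Lag3, which entered through its small intestine libraries alone, and Havcr2, which had only 1 spleen library above the filter limit. Without the library labelled shCD8 small intestine Asbt+/+, 3 of the 6 genes left lay above 0 (median 0.58, beside -0.08 over all genes). Ctla4, which encodes the inhibitory receptor CTLA-4 and is not one of the 7, stood at 968 to 1650 CPM in small intestine and 223 to 451 CPM in spleen, with no overlap. It was 3.58-fold higher in small intestine (log2 fold change 1.84 ± 0.24, edgeR adjusted p = 0.00625).

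**Figure D2:**
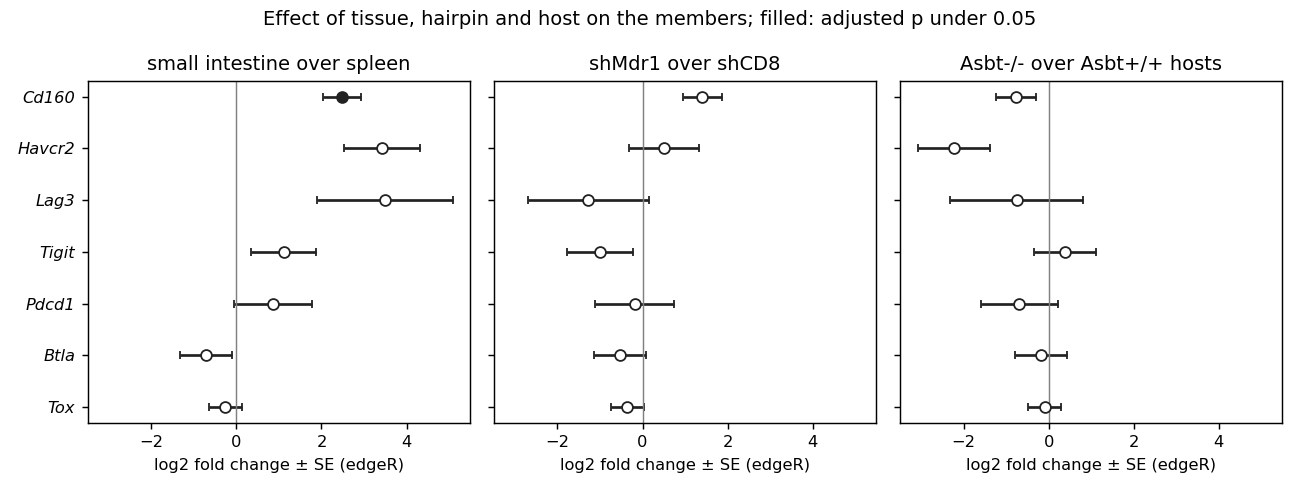
Log2 fold change ± SE of the 7 genes for small intestine over spleen, shMdr1 over shCD8 and Asbt-/- over Asbt+/+ hosts, from the edgeR fit of all 8 libraries (4 per level). Filled points passed an adjusted p of 0.05, and 1 point is filled, Cd160 between tissues (2.48 ± 0.45).

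The wider pathway was read from 7 lists, chosen with earlier results of these data known, so their passing genes are a description. Every list gene that passed between tissues was higher in small intestine, as were 51 of the 62 that passed among all genes tested. Of the co-inhibitory receptors outside the 7, 1 of 12 tested passed (Ctla4), with a median log2 fold change of 0.26. Of the co-stimulatory counterparts, 2 of 13 passed: Icos, a CD28 relative that sustains helper responses, was 2.92-fold higher (690 ± 133 CPM in small intestine, 237 ± 48 CPM in spleen, SD, n = 4 each; edgeR adjusted p = 0.0131), and Tnfrsf9, which encodes 4-1BB, was 5.60-fold higher (adjusted p = 0.0186). Of the transcription factors linked to Tox and exhaustion, 3 of 17 passed, all from the NR4A family of nuclear receptors that are induced by antigen receptor signals. Nr4a3 was 8.83-fold higher (453 ± 108 CPM in small intestine, 52.6 ± 18.3 CPM in spleen, SD, n = 4 each; edgeR adjusted p = 0.000611), Nr4a1 5.23-fold (adjusted p = 0.0025) and Nr4a2 4.38-fold (adjusted p = 0.0198). Among signal transducers and adaptors 1 of 15 passed, Egr2, an activation-induced factor linked to T cell tolerance, at 5.54-fold (adjusted p = 0.0269). Among type 1 helper and cytotoxic genes 2 of 11 passed, the granzymes Gzmb at 3.76-fold (adjusted p = 0.017) and Gzma at 7.84-fold (adjusted p = 0.0249). Of the ligands 1 of 8 passed, H2-Aa, an MHC class II chain, at 5.50-fold (adjusted p = 0.0355). No progenitor or memory gene of 12 passed, with a median of -0.77. The list medians were 0.63 for co-stimulatory counterparts, 0.40 for the Tox-linked factors, -0.09 for transducers, 0.99 for type 1 and cytotoxic genes and 0.59 for ligands.

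Marker sums of other cell types differed between the tissues as well, some with overlap. Summed gamma delta T cell markers were 86.8 to 547 CPM in small intestine (median 213.5) and 42.5 to 189 CPM in spleen (median 61.3), with Sox13 at 0 in every library. Cd8a and Cd8b1 summed to 0 to 96.3 CPM in small intestine and 0.616 to 12.9 CPM in spleen. The 10 markers of NK cells and innate lymphocytes summed to 435 to 828 CPM in small intestine and 331 to 726 CPM in spleen, with Ncr1 at 0 throughout. The 15 markers of dendritic cells and macrophages, which include H2-Aa, summed to 552 to 1153 CPM in small intestine and 174 to 502 CPM in spleen, without overlap, unlike the 3 sums before. Neutrophil markers went the other way, at 10.7 to 193 CPM in small intestine and 854 to 7581 CPM in spleen, as did erythroid markers at 38.3 to 105 CPM in small intestine and 1096 to 41580 CPM in spleen. The part of these cells in the tissue differences was not tested, and in such bulk samples fewer cells of a type and less RNA per cell cannot be told apart.

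The second comparison asked what the Mdr1 hairpin changed. No gene passed, neither among the 7 nor among all genes tested (0% of 10000 in edgeR; 299 had an unadjusted p under 0.05, limma-voom called 0 and DESeq2 4, none of the 7). Cd160 was higher on the side labelled shMdr1 in 4 of 4 pairs, as were 7.68% of all genes, and Tigit was lower in 3 of 4, without passing. These counts include the small intestine Asbt+/+ pair, in which Abcb1a was not lower on the side labelled shMdr1. None of the 7 had hairpin groups that did not overlap, against 2.79% of all genes in either direction.

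Cd160 was higher on the side labelled shMdr1 beyond counting error in both pairs from Asbt+/+ hosts. The spleen pair had 192 counts (shMdr1) and 34 counts (shCD8), a ratio of 5.47 (3.78 to 8.12), and in small intestine of Asbt+/+ hosts the libraries labelled shMdr1 and shCD8 had 647 and 164 counts, a ratio of 6.42 (5.40 to 7.67). In Asbt-/- hosts the ratio was 1.17 (0.984 to 1.38) in small intestine and 1.17 (0.697 to 1.97) in spleen. Both intervals in Asbt-/- hosts included 1, and both in Asbt+/+ hosts lay far above it. Over all libraries Cd160 averaged 159 ± 176 CPM with shMdr1 and 49.8 ± 42.8 CPM with shCD8 (SD, n = 4 each), a log2 fold change of 1.41 ± 0.47 (edgeR unadjusted p = 0.0119, adjusted p = 0.9995). It was 0.96 to 1.78 in the fits short of each library.

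The dependence of the hairpin difference on the host was tested directly. For Cd160 the hairpin effect in Asbt-/- hosts minus that in Asbt+/+ hosts was -2.34 ± 0.55 on the log2 scale, the third smallest unadjusted p of 10000 genes (0.00151), yet it did not pass (edgeR adjusted p = 1), and 0% of all genes passed (119 had an unadjusted p under 0.05, limma-voom called 3 and DESeq2 0). Leaving out any 1 library kept it between -2.55 and -2.13, and it passed without the shCD8 spleen Asbt+/+ library (adjusted p = 0.035), a fit that called 7.84% of all genes. The other 6 genes had estimates of -0.44 to 1.67 with SE of 0.84 to 2.63.

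**Figure D3:**
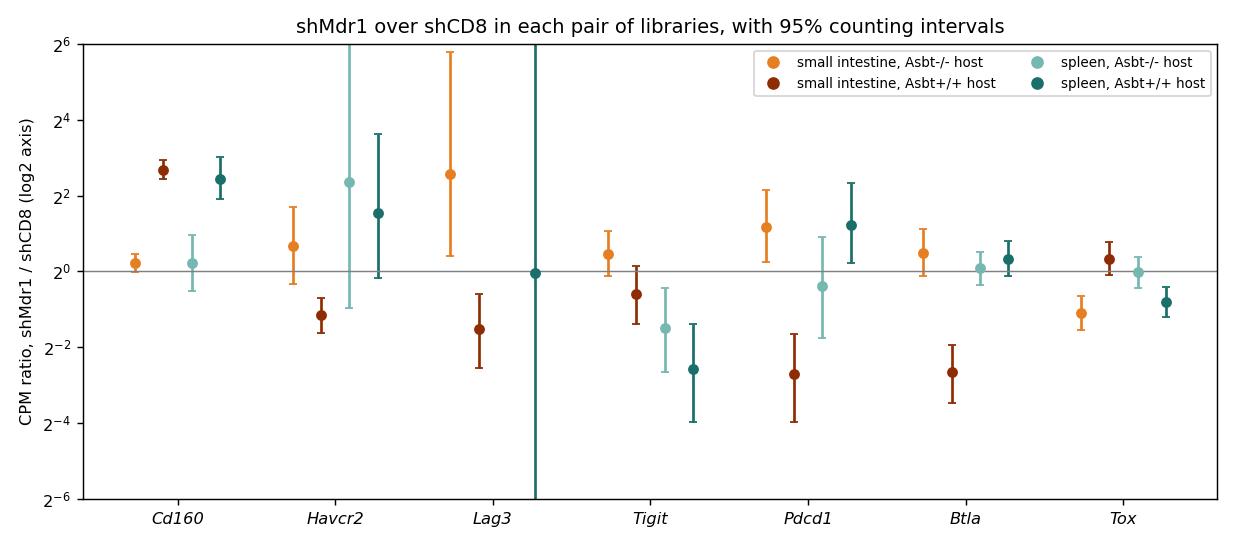
Ratio of CPM, shMdr1 over shCD8, for the 7 genes in the 4 pairs of libraries that share tissue and host, on a log2 axis with exact 95% intervals for counting error. The Cd160 ratios are 6.42 and 5.47 in Asbt+/+ hosts and 1.17 in both tissues of Asbt-/- hosts; bars that leave the axis belong to pairs with 1 count in a library, and the Lag3 pair in spleen of Asbt-/- hosts (0 counts with shMdr1, 4 with shCD8) is not drawn.

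Markers of other lymphocytes followed Cd160 in some libraries and not in others. The gamma delta T cell markers summed to 547 CPM in the small intestine library labelled shMdr1 Asbt+/+ and to 275 CPM in the one labelled shCD8, and to 189 CPM (shMdr1) and 75.7 CPM (shCD8) in spleen from Asbt+/+ mice. In Asbt-/- hosts they summed to 86.8 CPM with shMdr1 and 152 CPM with shCD8 in small intestine, and to 42.5 and 46.9 CPM with shMdr1 and shCD8 in spleen. Of that list Tcrg-C1, Tcrg-C2 and Tcrg-C4 gave most of the counts, which alpha beta T cells can also transcribe, while Trdc, the delta chain constant gene, had 0 counts in both Asbt+/+ libraries labelled shMdr1. The gamma delta sum was thus higher on the shMdr1 side in both Asbt+/+ pairs, as was Cd160, but lower in both Asbt-/- pairs, and the small intestine library with the least Cd160 had the second highest sum. Cd8a had 150 counts in the small intestine library labelled shMdr1 Asbt+/+ and 0 in the one labelled shCD8, and 31 (shMdr1) and 7 (shCD8) in spleen from Asbt+/+ mice. Cd8a is also the target of shCD8, and its 0 stands in the library that also had 0 counts for 49 of the 3151 genes that reached 20 CPM in all 7 others. Cd8b1 had 0 counts in all but 4 libraries, at most 8. The NK and innate lymphocyte markers summed to 469 and 743 CPM in the small intestine libraries labelled shMdr1 and shCD8 Asbt+/+, a sum that ran the reverse of Cd160. Il18r1, Tyrobp, Fcer1g and Eomes gave most of that sum, and each was lower on the side labelled shMdr1. Klrb1b (95 and 0 counts in the libraries labelled shMdr1 and shCD8) and Klrb1c (6 and 0) were higher there, as was Cd160. The rest of the list had 0 counts in both. In spleen from Asbt+/+ mice the sums were 726 CPM (shMdr1) and 416 CPM (shCD8). Mitochondrial transcripts took 18.3% of the counts in the small intestine library labelled shMdr1 Asbt+/+ and 7.06% in the one labelled shCD8, and 6.63% (shMdr1) and 7.33% (shCD8) in spleen from Asbt+/+ mice. Intestinal epithelial markers summed to 301 and 162 CPM in the small intestine libraries labelled shMdr1 and shCD8 Asbt+/+. In spleen from Asbt+/+ mice they summed to 138 CPM (shMdr1) and 33.1 CPM (shCD8). In Asbt-/- hosts they summed to 49.9 CPM (shMdr1) and 59.5 CPM (shCD8) in small intestine, and to 41.9 and 22.5 CPM in spleen. The part of these cells and of RNA quality in the Cd160 values was not tested.

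**Figure D4:**
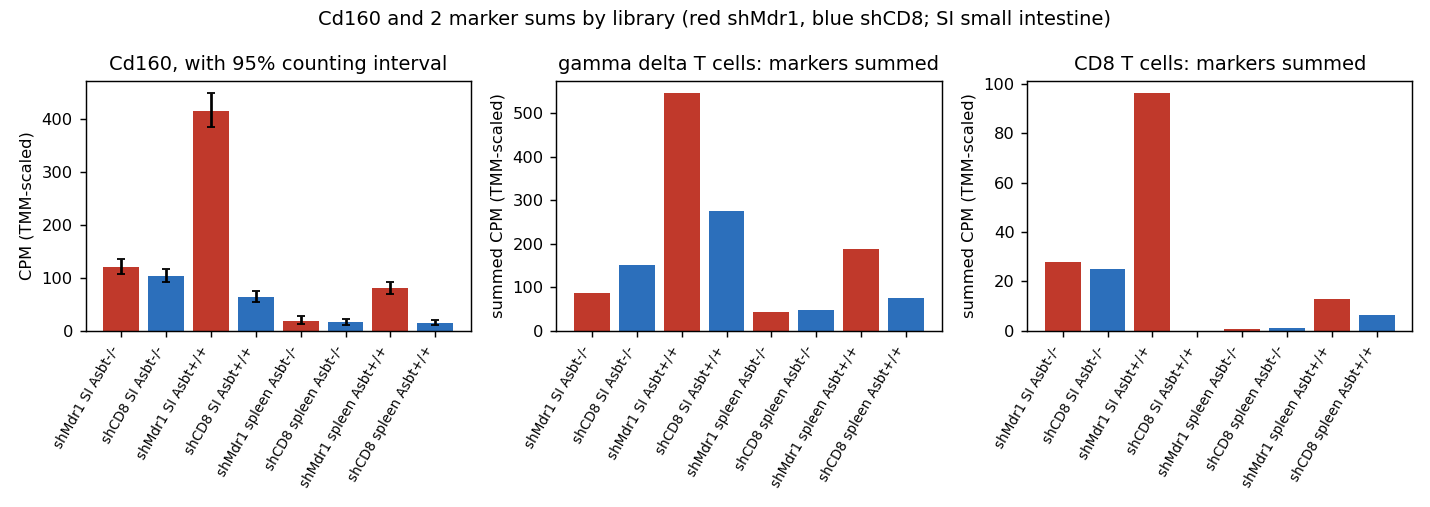
Cd160, the summed gamma delta T cell markers and the summed CD8 markers in each library, in CPM from 0 (red shMdr1, blue shCD8, SI small intestine; bars on Cd160 are exact 95% Poisson intervals). All 3 are highest in the small intestine library labelled shMdr1 Asbt+/+, at 415, 547 and 96.3 CPM.

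Tigit was lower with shMdr1 beyond counting error in both spleen pairs. The Asbt-/- pair had 10 counts (shMdr1) and 36 counts (shCD8), a ratio of 0.357 (0.158 to 0.735), and the Asbt+/+ pair had 7 counts (shMdr1) and 40 counts (shCD8), a ratio of 0.169 (0.0640 to 0.382). In small intestine the ratio was 1.38 (0.919 to 2.08) in Asbt-/- hosts and 0.663 (0.385 to 1.11) between the libraries labelled shMdr1 and shCD8 in Asbt+/+ hosts, and both intervals included 1. The log2 fold change over all libraries was -1.002 ± 0.77 (edgeR adjusted p = 0.9995). The hairpin effect in small intestine minus that in spleen was 1.94 ± 1.47 and did not pass (adjusted p = 1), and 0% of all genes passed that test (170 had an unadjusted p under 0.05, limma-voom called 0 and DESeq2 1). Leaving out a library from this test changed the call for other members: Pdcd1, Havcr2 and Btla passed without either small intestine Asbt-/- library (adjusted p = 0.000354 to 0.047), in fits that called 29.8 and 29.9% of all genes and whose residual spread came from spleen alone.

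The other 5 genes gave mixed pairs. Havcr2 was higher with shMdr1 in 3 pairs, of which the spleen pairs had 1 to 12 counts per library, and lower between the libraries labelled shMdr1 and shCD8 in small intestine of Asbt+/+ hosts (ratio 0.452, 0.327 to 0.615). Pdcd1 was higher with shMdr1 in small intestine of Asbt-/- hosts (2.25, 1.19 to 4.45) and in spleen of Asbt+/+ hosts (2.34, 1.16 to 5.03). Between the libraries labelled shMdr1 and shCD8 in small intestine of Asbt+/+ hosts the Pdcd1 ratio was 0.153 (0.0641 to 0.316) and the Btla ratio 0.158 (0.0901 to 0.261). The other Btla ratios were 1.06 to 1.40 with intervals that included 1. Tox was lower with shMdr1 in small intestine of Asbt-/- hosts (0.471, 0.345 to 0.637) and in spleen of Asbt+/+ hosts (0.571, 0.434 to 0.746), and near 1 in the other pairs (1.26 and 0.981). The fitted log2 fold changes were 0.51 ± 0.82 for Havcr2, -0.18 ± 0.93 for Pdcd1, -1.27 ± 1.42 for Lag3, -0.54 ± 0.61 for Btla and -0.36 ± 0.38 for Tox. Without the library labelled shCD8 small intestine Asbt+/+ they were 1.36 ± 0.87 for Havcr2, 0.64 ± 0.87 for Pdcd1 and 0.26 ± 0.37 for Btla, a change of sign for Pdcd1 and Btla. The median over the 7 genes was -0.36, beside 0.09 over all genes, and 0.45 over the 6 genes left without that library, beside -0.03. Ctla4 was lower on the side labelled shMdr1 in 4 of 4 pairs, at 0.503 to 0.761 of shCD8, a log2 fold change of -0.70 ± 0.23 that did not pass (edgeR adjusted p = 0.9995). The share of all genes lower in every hairpin pair was not counted. Of the co-inhibitory receptors outside the 7, 2 of 12 lay above 0 (median -0.41), and of the co-stimulatory counterparts 2 of 13 (median -0.20). The Tox-linked factors had 6 of 17 (-0.21), progenitor and memory genes 5 of 12 (-0.04) and ligands 4 of 8 (-0.08). Transducers had 9 of 15 (0.11) and type 1 and cytotoxic genes 8 of 11 (0.42), beside 55.1% of all genes above 0. No list gene passed in the hairpin or the host comparison.

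The third comparison asked what the loss of Asbt in the host changed. Again no gene passed among the 7 or among all genes (0% in edgeR; 271 had an unadjusted p under 0.05, limma-voom called 0 and DESeq2 4, none of the 7). Havcr2 was lower in Asbt-/- hosts in 4 of 4 pairs, as were 5.19% of all genes, without passing. Of the 7 genes, 1 lay above 0, with a median of -0.69, beside 57.3% of all genes and a median of 0.11. Without the library labelled shCD8 small intestine Asbt+/+, 3 of the 6 genes left lay above 0 (median 0.02, beside 0.01 over all genes). Mitochondrial shares in spleen were 26.8% (shMdr1) and 17.6% (shCD8) in Asbt-/- mice, against 6.63% (shMdr1) and 7.33% (shCD8) in Asbt+/+ mice. Small intestine did not show this difference, at 8.6% (shMdr1) and 7.3% (shCD8) in Asbt-/- mice. The small intestine Asbt+/+ libraries labelled shMdr1 and shCD8 had 18.3% and 7.06%. The part of these shares was not tested. None of the 7 had hosts that did not overlap, against 2.71% of all genes in either direction.

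For Havcr2 the Asbt-/- library held 0.280 (0.165 to 0.461) of the Asbt+/+ value in the pair labelled shMdr1 and 0.0795 (0.0436 to 0.134) in the pair labelled shCD8 in small intestine. In spleen the shares were 0.493 (0.116 to 1.63) for shMdr1 and 0.278 (0.00565 to 2.81) for shCD8, where no library held more than 12 counts. The intervals of both small intestine pairs lay below 1, and those of both spleen pairs included 1. The means were 4.61 ± 3.98 CPM in Asbt-/- hosts and 29.0 ± 34.1 CPM in Asbt+/+ hosts (SD, n = 4 each), a log2 fold change of -2.23 ± 0.86 (edgeR unadjusted p = 0.0249, adjusted p = 0.996). Without the library labelled shCD8 small intestine Asbt+/+ it was -1.35 ± 0.85 (adjusted p = 0.995).

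Cd160 differed by host within the shMdr1 libraries, at 0.291 (0.253 to 0.334) of the Asbt+/+ value in the small intestine pair labelled shMdr1 and 0.239 (0.158 to 0.350) in spleen. It stood at 1.60 (1.31 to 1.96) of the Asbt+/+ value in the small intestine pair labelled shCD8 and at 1.11 (0.672 to 1.85) in the shCD8 spleen pair. The fitted host effect of Cd160 was -0.77 ± 0.47 (edgeR adjusted p = 0.996), and -1.24 to -0.36 in the fits short of each library. Lag3 had 12 counts in the Asbt-/- and 12 in the Asbt+/+ small intestine library labelled shMdr1, and 2 counts in the Asbt-/- and 56 in the Asbt+/+ one labelled shCD8. Btla was higher in Asbt-/- hosts in 3 of 4 pairs, by ratios of 2.00 (1.14 to 3.67) for the small intestine pair labelled shMdr1, 1.34 (0.985 to 1.81) for the shMdr1 spleen pair and 1.59 (1.17 to 2.18) for the shCD8 spleen pair. The ratio in the small intestine pair labelled shCD8 was 0.226 (0.155 to 0.321), and its fitted effect was -0.17 ± 0.61 with and 0.67 ± 0.38 without the library labelled shCD8 small intestine Asbt+/+. Pdcd1 likewise was -0.69 ± 0.91 with and 0.25 ± 0.91 without that library. Tox and Tigit gave -0.10 ± 0.38 and 0.38 ± 0.73. The markers of gamma delta T cells had 0 of 4 tested genes above 0 between hosts, with a median log2 fold change of -2.33, and those of intestinal epithelium 0 of 9, with a median of -3.48. Neutrophil markers had 0 of 7 (median -1.80), NK and innate markers 1 of 5, and dendritic cell and macrophage markers 3 of 10. Erythroid markers had 4 of 6, CD4 T cell markers 7 of 11 and stromal markers 3 of 3. CD8, B cell and mast cell markers had 0 of 1 each. Over all genes tested, 57.3% lay above 0. Of the progenitor and memory genes 11 of 12 lay above 0, with a median of 0.38 and none past the threshold. Co-stimulatory counterparts had 10 of 13 above 0 (median 0.205), Tox-linked factors 13 of 17 (0.18) and transducers 9 of 15 (0.21). Co-inhibitory receptors outside the 7 had 7 of 12 (0.12), ligands 2 of 8 (-0.34) and type 1 and cytotoxic genes 2 of 11 (-0.23).

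Whether the host difference depended on tissue was tested as well, and 0% of all genes passed (edgeR; 431 had an unadjusted p under 0.05, limma-voom called 0 and DESeq2 21). The host effect of Havcr2 in small intestine minus that in spleen was -1.44 ± 1.65 (edgeR adjusted p = 0.937), and that of Btla was -1.17 ± 1.26 (adjusted p = 0.937). For Cd160 the same difference was 0.43 ± 1.09 (adjusted p = 0.971). Cd160 and Btla passed without either library labelled shMdr1 small intestine (adjusted p = 0.000375 to 0.0119), again in fits whose residual spread came from spleen alone and which called 33.6 and 33.8% of all genes.

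Levels can be set beside each other per kilobase of exon sequence (GENCODE vM21). Over the 8 libraries Ctla4 averaged 337.5 ± 221.6 CPM per kb (SD, n = 8), above all 7 genes. Cd160 averaged 39.5 ± 50.01 CPM per kb, Tigit 16.4 ± 7.86, Btla 10.6 ± 5.91, Tox 6.34 ± 1.63, Havcr2 6.18 ± 9.55, Pdcd1 5.70 ± 5.00 and Lag3 2.26 ± 3.55. Each neighbouring pair among the 7 differed by less than the larger SD of the pair, though not always by less than the smaller one. In small intestine Havcr2 averaged 11.5 CPM per kb and Tox 5.78, whereas in spleen Havcr2 averaged 0.887 and Tox 6.90. In GRCm38 Pdcd1 lies on chromosome 1, Cd160 on 3, Tox on 4, Lag3 on 6, Havcr2 on 11, and Tigit and Btla on 16. Cd160 overlaps Pdzk1 on the other strand and Tox overlaps the antisense gene Gm11802, and whether the counting used strand is not given in the sources used here. Pdzk1 had 0 counts in all 8 libraries and Gm11802 had 4 counts in 1 spleen library and 0 in the rest.

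The genes most like each of the 7 were taken as those with the smallest root mean square difference in log2 CPM (prior count 2) over the 8 libraries, after centring each gene on its own mean, among genes of at least 10 CPM. For Cd160 they were Cdkn1a, the cell cycle inhibitor p21, at 0.65, Sv2c at 0.73 and Farp1 at 0.75, beside a median distance of 1.72 over all 6665 candidates. With a prior count of 10, Cdkn1a stayed among the 3 nearest of Cd160, and Sv2c and Farp1 did not. For Havcr2 they were Cd83, a glycoprotein of activated lymphocytes and dendritic cells, at 0.71, Plscr1 at 0.80 and Bcl2a1a at 0.82 (median 1.95), and for Tigit Neb at 0.35, Tnfrsf4, the co-stimulatory receptor OX40, at 0.42 and Slc45a4 at 0.42 (median 1.12). With that prior, Cd83 and Bcl2a1a left the set of Havcr2 and Tnfrsf4 that of Tigit. For Lag3 they were Csf2, the cytokine GM-CSF, at 0.40, Hbb-bh1 at 0.43 and Ier5l at 0.60 (median 1.66), none of which stayed with a prior count of 10. For Pdcd1 they were Tmem62 at 0.28, St3gal4 at 0.33 and Psme4 at 0.36 (median 1.04). For Btla they were Mettl6 at 0.24, Aqr at 0.25 and Baz2a at 0.28 (median 1.06), and for Tox Arl4a at 0.18, Chmp2b at 0.18 and Stag2 at 0.20 (median 0.78), and Baz2a and Stag2 did not stay with the other prior. No member of the 7 was among the nearest of another.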

How the data were processed

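The authors deposited unnormalized whole-number counts, with genes as rows and libraries as columns. Per the labels' protocols, cDNA was made with the SMART-Seq v4 ultra low input kit and libraries with the NEBNext Ultra II kit, without molecular identifiers. Per the submitters' processing notes, the tools were TopHat, HTSeq and DESeq2 and the build was mm9, while roles, versions and strand setting were not given in the sources used here. From these counts, filterByExpr on the additive design kept 10000 of 37411 genes (17570 had a count), which held 99.52% of the counts. TMM factors and the edgeR 4.0.16 quasi-likelihood test (R 4.3.3) were used, with Benjamini-Hochberg adjustment over all tested genes at 0.05. The additive fit of tissue, hairpin and host had 4 residual degrees of freedom, so libraries of a level stand as replicates over the other factors. The fits with tissue-dependent effects and with the hairpin by host term had 2 and 3. Each SE is approximate, derived from the fold change and its F statistic (|log2 fold change| over the root of F). Single libraries and pairs carry exact 95% intervals for counting error only. Scripts were tested on simulated data. The members, gene lists, promoter motifs and rules were chosen with earlier results of these data known. Genes named are the 7 members, Ctla4, the label checks, up to 4 passing genes per list by smallest p, and the 3 genes most like each member; marker genes named singly were chosen after their values were seen. As alternatives, the scaling (DESeq2 size factors), the filter (none) and the test (Wald test of DESeq2 1.42.0 or limma-voom, limma 3.58.1) were changed in turn, and further ones were a block for matched pairs (libraries alike in the other factors), another prior count (10), and fits short of each library or of both small intestine Asbt+/+ libraries. Gene lengths and positions are from GENCODE vM21, in which 36174 of the table's symbols and all 7 members occur, and start regions are from RefSeq.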

Additional observations from a re-analysis of the deposited data

Results flagged for a closer look

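Cd160 was the 1 gene of the 7 with a library far from the others of its tissue. In small intestine the library labelled shMdr1 Asbt+/+, at 415 CPM, was separated from the next library by 0.84 of the whole range, and in spleen the shMdr1 Asbt+/+ library, at 79.9 CPM, by 0.932 of the range. The limit for 4 libraries is 0.829. In all, 14 sets of 4 libraries were looked at and 2 exceeded it. For 4 normally distributed replicates chance exceeds it in about 1 of 20. These are linear CPM of libraries that differ in hairpin and host, so that rate is only a rough guide. No check was made on the log2 scale. Both libraries are labelled shMdr1 Asbt+/+, though Abcb1a in the small intestine one (23 counts, against 21 in the one labelled shCD8) was not lower. Both also held the highest summed gamma delta T cell and CD8 markers of their tissue (547 and 96.3 CPM in small intestine, 189 and 12.9 CPM in spleen). Trdc and Cd8b1 had 0 counts in both. The sums of CD4 T cell, neutrophil and intestinal epithelial markers were also the highest of their tissue in both. They were 10570, 193 and 301 CPM in small intestine and 7781, 7581 and 138 CPM in spleen. Sums of the remaining cell types were not highest in both. The part of these markers was not tested. Btla came near the limit in small intestine (0.813), through the library labelled shCD8 Asbt+/+.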

How the results depend on the processing

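Between tissues, 1 of the 7 genes and 62 of all genes passed. Without a filter on low counts 2 of the 7 and 165 genes passed, in DESeq2 2 and 257, in limma-voom 0 and 73, and without both small intestine Asbt+/+ libraries 0 and 39; DESeq2 size factors (62) and the matched-pair block (54) left 1 of the 7. Leaving out each library gave 0 to 1 of the 7 and 11 to 137 genes, the highest without the library labelled shCD8 small intestine Asbt+/+ and 11 to 36 without any other. Against 0 genes for the hairpin, no filter gave 9 and DESeq2 4, and for the host 14 and 4 (0 to 4 without each library, 4 without that one). DESeq2 called 1 gene for the hairpin effect by tissue and 21 for the host effect by tissue, and for the hairpin effect by host no filter and limma-voom each called 3. Leaving out each library gave 0 to 3 of the 7 and 1 to 2921 genes for the hairpin by tissue, 0 to 2 and 0 to 3297 for the host by tissue, and 0 to 1 and 0 to 770 for the hairpin by host, where 770 arose without the shCD8 spleen Asbt+/+ library and 0 without any other. The by-tissue counts were 519 to 3297 without a small intestine library and 0 to 3 without a spleen library. These fits keep 1 or 2 residual degrees of freedom, and in the by-tissue fits the tissue short of a library has none.

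Signs turned only for values that did not pass. In limma-voom they were -0.44 for Havcr2 with the hairpin, -0.33 for Cd160 hairpin by tissue and 1.46 for Lag3 hairpin by host. Without both small intestine Asbt+/+ libraries they were 0.70 for Pdcd1 and 0.30 for Btla with the hairpin, and 0.55 for Btla and 0.16 for Tox with the host. With the matched-pair block Btla gave 0.041 with the host. The cause was not tested. Leaving out each library gave, between tissues, -0.066 to 1.23 for Pdcd1. With the hairpin it gave -0.61 to 0.64 for Pdcd1, -1.94 to 0.24 for Lag3 and -0.83 to 0.26 for Btla. With the host it gave -1.06 to 0.25 for Pdcd1, -0.019 to 0.77 for Tigit, -0.48 to 0.67 for Btla and -0.27 to 0.17 for Tox. For the hairpin by tissue it gave -3.17 to 0.70 for Pdcd1, -1.25 to 1.22 for Cd160, -2.87 to 0.27 for Btla and -0.67 to 0.76 for Tox. For the host by tissue it gave -2.15 to 1.71 for Pdcd1, -5.57 to 0.46 for Lag3, -0.84 to 0.36 for Tigit, -0.72 to 1.74 for Cd160, -2.69 to 0.45 for Btla and -1.18 to 0.24 for Tox. For the hairpin by host it gave -0.21 to 2.55 for Pdcd1, -3.01 to 3.23 for Lag3, -0.32 to 2.51 for Havcr2 and -0.87 to 0.24 for Tox. Lag3 fell under the filter in 2 of these 8 fits. All 81 pair ratios stayed within their intervals on plain totals. By replicate number, no paired analysis was possible because each combination has 1 library. The matched-pair block instead joins libraries alike in both factors not compared, and with it Cd160 gave 2.46 ± 0.29 between tissues (edgeR adjusted p = 0.0039). Depth limits Lag3 in all spleen libraries and Havcr2 in 3 of them, at 0 to 4 counts.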
